A study of Drosophila melanogaster with 13 samples.

Results

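The comparison set sorted secondary cells of the iab-6cocuD1 mutant, called D1 here, against sorted secondary cells of a wild-type background. Its members are the 6 libraries that the labels assign to these 2 groups, 3 biological replicates each, out of 13 libraries in the series. The count table held 16727 genes. Of these, 8222 had enough counts to be tested with all libraries, and 8607 in a second fit without D1 replicate 1, a library that stood apart from the other D1 libraries. The question was which functions of the cell differ in the mutant beyond the Bithorax complex itself.

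Both groups carried D1:GAL4 and UAS-GFP, and the D1 group carried iab-6cocuD1 in addition. Males were 5 to 11 days old. Accessory glands were dissociated with the protease TrypLE, GFP-positive cells were collected by fluorescence-activated sorting, and 2 ng of RNA per library was amplified with poly(dT) priming and read without strand information as single reads of 100 nt. The cells studied are therefore those in which the driver is active and which survive the sort, and the control carries the same driver and reporter. In such bulk samples, fewer cells of a type and less RNA per cell cannot be told apart.

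Secondary cells are large, binucleate epithelial cells at the distal tip of the male accessory gland. They are filled with vacuole-like compartments in which dense-core granules form, and they add proteins to the seminal fluid that the far more numerous main cells do not make. Their development depends on the Hox gene Abd-B, whose expression in this tissue is under the control of iab-6, a regulatory domain in the Bithorax complex, and their secretion on Rab-directed endosomal traffic and BMP signalling.

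With all libraries, 505 genes (6.14% of those tested) rose in D1 and 298 (3.62%) fell at an adjusted p under 0.05 (edgeR quasi-likelihood test, Benjamini-Hochberg adjustment over all genes, used throughout), 9.77% in either direction. Without D1 replicate 1 the counts were 1093 (12.7%) and 1002 (11.6%), or 24.3% in either direction. These shares over all tested genes are the background for each list count below. The second fit held 490 of the 505 rises (97.0%, and 44.8% of its own 1093) and 297 of the 298 falls (99.7%, and 29.6% of 1002). For the genes called in both fits, which the test chose with D1 replicate 1 among the libraries, the median difference from wild type was 1.70 on the log2 scale in replicate 1 and 1.76 in replicates 2 and 3 for the rises, and -1.38 and -1.35 for the falls. The 3 libraries of each group did not overlap for 502 of the 505 rises and for all 298 falls, while 16.3% of all tested genes lay apart upwards and 15.2% downwards. Called genes thus nearly always have groups apart, which is no support beyond the call.

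The rises were the larger changes. Their median was 3.90-fold, 249 were at least 4-fold and 84 at least 16-fold. Among the falls the median was 2.74-fold, 97 were at least 4-fold and 33 at least 16-fold. Many rises began from very low levels. Of 1384 tested genes under 1 CPM (count in 1000000) in wild type, 128 rose and 4 fell. Of 29 genes at 1000 CPM or more, 2 rose and 10 fell. A gene under 1 CPM in wild type can pass the low-count filter through a group where it is higher. Such a gene also has little room to fall, so the split under 1 CPM is partly set by the filter and the floor. On the X chromosome 7.17% of tested genes rose and 2.12% fell, and on 3R, which carries the Bithorax complex, 6.49% rose and 4.52% fell. Among 266 tested non-coding RNA genes 15 rose and 19 fell.

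Levels below are normalised CPM, which divide counts by library totals of 19389510 to 26088798 counts and by a scaling factor (TMM). These factors were 0.798 to 0.831 in wild type, 0.905 in D1 replicate 1 and 1.52 and 1.58 in D1 replicates 2 and 3, whose 10 most abundant genes held 58.2 and 56.3% of counts against 72.5% in replicate 1 and 75.7 to 77.0% in wild type. Without such factors the median log2 fold change of all genes was 0.70 in place of 0.0037, and 1450 genes rose and 116 fell. Changes are therefore stated relative to the median gene. Before scaling, 296 of the 298 falling genes still had a lower mean in D1, and the groups lay apart for 192 of them. Without D1 replicate 1 the factors decided more: 739 of the 1002 falls were lower before scaling, and without factors 3891 genes rose and 201 fell.

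**Figure D1:**
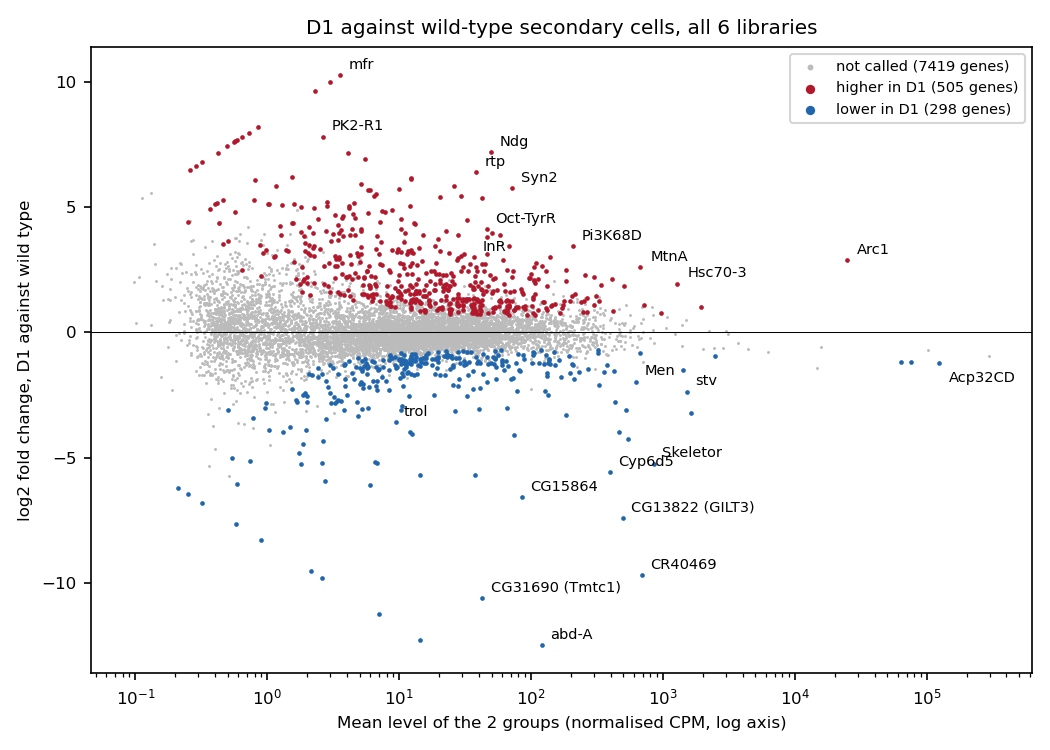
Log2 fold change of D1 against wild type (vertical) by mean normalised CPM of the groups (horizontal, log axis) for the 8222 genes tested with all 6 libraries. Red points are the 505 rises, blue points the 298 falls and grey points the genes not called. Rises reach down to the lowest levels, and Arc1 and Acp32CD mark the changes of the most abundant transcripts.

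The sorted cells carried the defining transcripts of secondary cells in both genotypes. The 12 genes of that list took 60.3 to 61.8% of counts in wild type, 59.8% in D1 replicate 1 and 39.4 and 38.3% in D1 replicates 2 and 3. Of the 12, none rose and 3 fell in D1, the male-specific transcript unit iab-8 and the lectins lectin-46Ca and lectin-46Cb. Without D1 replicate 1, 7 fell. The list median log2 fold change was -0.81, with 1 of the 12 above 0, and -1.14 without D1 replicate 1. By library the median was -0.61 in D1 replicate 1 and -0.99 and -1.24 in replicates 2 and 3. Wild-type medians lay between -0.016 and 0.012. Abd-B itself stood at 143, 126 and 121 normalised CPM in wild type against 147, 83.5 and 105 in D1 (log2 fold change -0.21 ± 0.26, adjusted p = 0.722), so the groups overlapped. The homeodomain gene dve, which also marks these cells, differed by 0.024 on the log2 scale (adjusted p = 0.981), and the BMP target Dad by -0.45 (adjusted p = 0.393).

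Transcripts of other cells were scarce. Their shares are of counts before scaling, where the median log2 fold change of all genes was 0.70. A larger share in D1 is therefore not by itself a rise relative to the median gene. Muscle contractile genes together took 0.0234 to 0.0317% of counts in wild type and 0.0412 to 0.0754% in D1, and 1 of 12 tested members rose, Msp300, which also anchors nuclei in other cells. Haemocyte genes took 0.0286 to 0.0334% in wild type and 0.0288 to 0.0377% in D1, with 1 of 6 tested genes falling, the cofactor ush, and 3 of the 16 listed genes, NimC4, PPO2 and eater, at 0 counts in all 6 libraries. Fat body genes reached at most 0.00147% in any library and 0 of 4 tested genes were called by edgeR or by DESeq2, and 0 at an unadjusted p under 0.05. Testis genes took 0.00328 to 0.00393% in wild type and 0.00348 to 0.00839% in D1, with 0 of 11 called, and ejaculatory duct and bulb genes 0.000515 to 0.000939% and 0.00105 to 0.0023%, with 0 of 3. At an unadjusted p under 0.05, 1 testis and 1 duct gene passed, and DESeq2 called 0 and 1. Tracheal genes took 0.000958 to 0.00112% in wild type and 0.00495 to 0.017% in D1. The chitinase Cht2 was the 1 of 3 tested tracheal genes that rose, and the tracheal marker Gasp had 0 counts. Main cell products differed mostly within groups: their list median was -4.27 on the log2 scale in wild-type replicate 1 and 0.37 and 0.68 in replicates 2 and 3, and 0.72 in D1 replicate 1 and -1.30 and -2.26 in replicates 2 and 3 of D1.

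Several genes of the Bithorax complex lost nearly all their counts in D1. The labels do not state which sequence iab-6cocuD1 removes. Whether the allele or another difference in background underlies these losses was not tested. abd-A was lost, with 211, 248 and 263 in wild type against 0.0527, 0 and 0.0593 in D1 (log2 fold change -12.47 ± 0.50, adjusted p = 8.40e-07). The sugar transporter gene Glut3 and the non-coding iab-4 and bxd, all of the complex, had 0 counts in every D1 library, and iab-8 fell (log2 fold change -4.24 ± 0.24, adjusted p = 1.24e-05). Ubx, also of the complex, was called lower only when D1 replicate 1 was left out (adjusted p = 0.00141, against 0.152 with it). The iab-4 gene lies within the span of iab-8 on the other strand. As the reads carry no strand information, wild-type counts of iab-4 may include RNA of iab-8. The genes named below for other functions are not on the list of complex genes, though Glut3 is also counted among the solute carriers. abd-A had a log2 fold change of -11.88 without D1 replicate 2 and -13.08 without D1 replicate 3.

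Other genes fell by large factors too, though by less than abd-A. CG31690 (Tmtc1), of a family of mannosyltransferases in the endoplasmic reticulum (ER), stood at 98.2, 85.0 and 71.98 normalised CPM in wild type against 0.0527, 0.0340 and 0.0593 in D1 (log2 fold change -10.61 ± 0.39, adjusted p = 6.77e-07). CG13822 (GILT3), a thiol reductase homologue of the lysosomal GILT family, fell from 992, 932 and 1024 to 7.95, 3.23 and 6.14 (log2 fold change -7.41). Skeletor, which encodes a spindle matrix protein, fell from 1545, 1724 and 1679 to 24.5, 59.0 and 47.8 (log2 fold change -5.23 ± 0.37, adjusted p = 3.24e-05). Groups that do not overlap were a condition for naming these genes, so the gap between groups is set by that choice.

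The cytochrome P450 gene Cyp6d5 stood at 771, 794 and 746 in wild type against 28.96, 11.8 and 7.86 in D1 (log2 fold change -5.58 ± 0.49, adjusted p = 1.39e-04). The lysosomal beta-galactosidase Gal fell from 28.0, 28.9 and 27.7 to 0.579, 0.815 and 0.237. The membrane serine protease Np (Notopleural) stood at 6.96, 4.12 and 5.14 in wild type against 0.316, 0 and 0 in D1 (log2 fold change -5.94 ± 0.97, adjusted p = 0.00395), with 0 counts in D1 replicates 2 and 3. Genes without a known role fell as well: CG15864 (log2 fold change -6.56), CG43218 (-5.70), CG7166 (-6.08) and CG32816 (-5.21). Of the non-coding genes, CR40469 fell from 1339.8, 1546 and 1276 to 3.90, 0.475 and 0.831, and CR45751 from 4.09, 5.75 and 5.72 to 0 counts in all D1 libraries, at least 142-fold. CR45751 lies between abd-A and Glut3 on 3R, within the complex, although it is not on the list of complex genes used here. Cyp6d5 had a log2 fold change of -6.30 without D1 replicate 1. Np had a log2 fold change of -9.90 without D1 replicate 1, -5.28 without D1 replicate 2 and -5.21 without D1 replicate 3. CG32816 had a log2 fold change of -6.44 without D1 replicate 1 and -4.56 without D1 replicate 3. CR40469 had a log2 fold change of -11.03 without D1 replicate 1.

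The sharpest rises were of genes silent or nearly silent in wild type. The ferlin gene mfr (misfire), known for its need in sperm after fertilisation, had 0 counts in wild type and 4.16, 10.8 and 6.29 normalised CPM in D1, at least 142-fold higher (adjusted p = 0.00229). The hairpin RNA gene CR32207, of a class that is processed to small interfering RNAs, went from 0 to 9.06, 4.31 and 4.57 (at least 106-fold, adjusted p = 0.00247). CG10880 (daed), a piRNA pathway gene, stood at 0, 0 and 0.144 in wild type against 11.2, 7.096 and 6.20 in D1 (log2 fold change 7.16 ± 0.90, adjusted p = 0.00204). Groups that do not overlap were a condition for naming these 3. CG10880 had a log2 fold change of 10.47 without wild-type replicate 3.

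The retinal protein gene rtp (retinophilin) stood at 1.13, 0.639 and 0.913 normalised CPM in wild type against 129, 50.8 and 48.6 in D1 (log2 fold change 6.40 ± 0.68, adjusted p = 3.28e-04). Syn2, a syntrophin of the dystrophin complex, rose from 3.68, 1.51 and 2.50 to 92.0, 163 and 169.9 (log2 fold change 5.78 ± 0.76, adjusted p = 0.00116). Hsc70-2, a cognate of the heat shock protein Hsp70, rose from 0.154, 0.232 and 0.0961 to 6.58, 10.8 and 12.8 (log2 fold change 5.94 ± 0.75, adjusted p = 9.12e-04). CG14868 (log2 fold change 6.92) and CG14131 (5.87) have no role known here. D1 replicate 1 was the highest of the D1 libraries for rtp and the lowest for Syn2, Hsc70-2, CG14868 and CG14131. All 5 were chosen among genes whose groups lie apart. The call of CG14131 did not hold without wild-type replicate 1 or 3 (adjusted p = 0.0595 to 0.0710). rtp had a log2 fold change of 5.78 without D1 replicate 1. CG14868 had a log2 fold change of 8.39 without wild-type replicate 3. CG14131 had a log2 fold change of 6.48 without wild-type replicate 2.

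**Figure D2:**
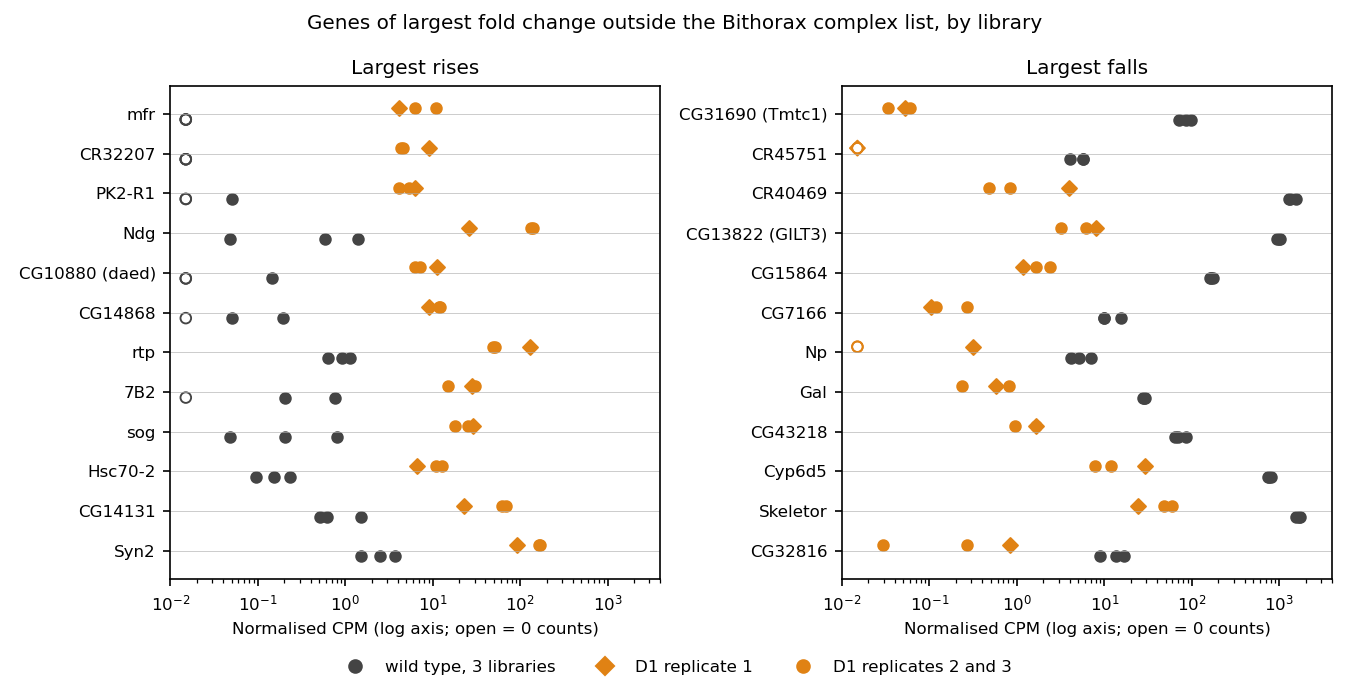
Normalised CPM (log axis) of the 12 largest rises and 12 largest falls by fold outside the Bithorax complex list, in each library. Grey circles are the wild-type libraries, orange diamonds D1 replicate 1 and orange circles D1 replicates 2 and 3; open symbols mark 0 counts. The 24 genes were chosen as called in both fits with groups that do not overlap, so the gap between grey and orange is set by that choice.

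By amount of RNA, Arc1 rose most. It encodes a retrotransposon-derived protein that forms capsids carrying RNA, and stood at 4864, 6374 and 6348 normalised CPM in wild type against 32026, 49832 and 48532 in D1 (log2 fold change 2.89 ± 0.28, adjusted p = 1.97e-04). MtnA, a metal-binding metallothionein, rose from 204, 166 and 197 to 2444, 611 and 412 (log2 fold change 2.61 ± 0.64, adjusted p = 0.0301), with D1 replicate 1 far above the others, and Rpi, ribose-5-phosphate isomerase of the pentose phosphate pathway, from 197, 221 and 232 to 792, 819 and 742 (log2 fold change 1.86 ± 0.24, adjusted p = 0.00112). The other large gains in amount were all of the ER: Hsc70-3, Crc (Calr), Spp, ERp60 and Pdi. The call of MtnA did not hold without wild-type replicate 1, 2 or 3 (adjusted p = 0.102 to 0.129). MtnA had a log2 fold change of 1.44 without D1 replicate 1.

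The largest losses in amount were of secreted products, Acp32CD, lectin-46Cb and lectin-46Ca. Behind them came CG43185, a gene of unknown role that fell from 2928, 3055 and 2888 to 750.0, 107 and 99.5 (log2 fold change -3.21 ± 0.79, adjusted p = 0.0303), with D1 replicate 1 between wild type and the other D1 libraries, and the Hsp70 co-chaperone stv, from 2756, 2722 and 2168 to 433, 456 and 596 (log2 fold change -2.36 ± 0.24, adjusted p = 2.50e-04). CG31075 fell from 3214, 3337 and 3172 to 1388, 1971 and 1696 (log2 fold change -0.94 ± 0.21, adjusted p = 0.0168). The call of CG43185 did not hold without wild-type replicate 1, 2 or 3, or D1 replicate 2 or 3 (adjusted p = 0.0713 to 0.0870). The call of CG31075 did not hold without wild-type replicate 1, 2 or 3, or D1 replicate 3 (adjusted p = 0.0655 to 0.0833). CG43185 had a log2 fold change of -4.84 without D1 replicate 1.

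The seminal fluid genes that passed mostly fell. Of 60 tested seminal fluid genes other than the main cell list, 6 fell and 1 rose (median log2 fold change -0.57); without D1 replicate 1, 10 fell and 2 rose of 61 (median -1.57). The list median by library was -2.63, 0.30 and 0.56 in wild-type replicates 1 to 3, and 0.18 in D1 replicate 1 and -1.02 and -1.47 in replicates 2 and 3, so wild-type replicate 1 lay below every D1 library and D1 replicate 1 was within the wild-type range. Acp32CD stood at 160922, 176812 and 174543 in wild type against 96766, 67030.4 and 57469.9 in D1 (log2 fold change -1.21 ± 0.25, adjusted p = 0.0136). The C-type lectin lectin-46Cb fell from 96629, 110343 and 108758 to 57386, 40528 and 42022 and its neighbour lectin-46Ca from 82833, 89489 and 91027 to 53038, 32655 and 32044 (log2 fold changes -1.17 and -1.16). Both proteins are needed for females to retain Sex Peptide, the male peptide that changes their behaviour after mating. CG17919, a phosphatidylethanolamine-binding protein homologue, fell from 204.6, 251 and 232 to 57.4, 39.2 and 24.4 (log2 fold change -2.51 ± 0.33, adjusted p = 0.00109), CG3349 from 271, 238 and 267 to 107, 47.6 and 71.2 (log2 fold change -1.78 ± 0.32, adjusted p = 0.00644) and the serpin Spn28B from 292, 295 and 303 to 138, 69.3 and 82.2 (log2 fold change -1.62 ± 0.27, adjusted p = 0.00404). For all 6 the D1 libraries lay below the wild-type libraries, as for all called falls. The call of Acp32CD did not hold without wild-type replicate 1, 2 or 3, or D1 replicate 2 (adjusted p = 0.0503 to 0.0636). The call of lectin-46Cb did not hold without wild-type replicate 2 or 3 (adjusted p = 0.0520 to 0.0530). The call of lectin-46Ca did not hold without wild-type replicate 1, 2 or 3, or D1 replicate 2 or 3 (adjusted p = 0.0596 to 0.0765).

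The most abundant product, CG9029, depended on D1 replicate 1. It stood at 392929, 374453 and 401684 in wild type against 427480.0, 90591 and 90610.4 in D1, so replicate 1 was at the wild-type level, and passed the test only without it (log2 fold change -2.11 ± 0.36, adjusted p = 0.00218, against log2 fold change -0.94 ± 0.60, adjusted p = 0.412 with it). CG13965 (20739, 20999.5 and 22452 in wild type against 15114, 5155 and 4049 in D1) and the small GTPase Rab19 (521, 461 and 491 in wild type against 389, 216 and 179.9 in D1), whose protein marks compartments of these cells, also passed only without replicate 1 (log2 fold changes -2.22 and -1.31, adjusted p = 9.88e-04 and 0.00191), although for both the replicate 1 value lay below every wild-type value. Of 21 tested main cell products, 0 rose and 1 fell, Acp32CD, which is abundant in the sorted cells of both groups.

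Entry into the secretory route differed in the other direction. Among ER chaperones and unfolded protein response genes 8 of 26 tested genes rose and 0 fell (median log2 fold change 0.64), beside a median of 0.0037 over all genes, and without D1 replicate 1 16 rose and 0 fell of 26 (median 0.85). The lectin chaperone Cnx99A (calnexin) stood at 109, 105 and 103.7 in wild type against 389, 521 and 580.0 in D1 (log2 fold change 2.23 ± 0.22, adjusted p = 2.41e-04). The BiP homologue Hsc70-3, the main Hsp70 of the ER, rose from 532, 552 and 492 to 1395, 2347 and 2356 (log2 fold change 1.95 ± 0.27, adjusted p = 0.00153). Protein disulfide isomerase Pdi rose from 154, 153 and 152 to 465, 784 and 747, its relative wbl (windbeutel) from 4.50, 7.38 and 7.30 to 75.9, 44.8 and 37.6, and the calcium-binding chaperone Crc (Calr, calreticulin) from 1232, 1339 and 1248 to 2818, 2564 and 2385. D1 replicate 1 was intermediate for Cnx99A, Hsc70-3 and Pdi and the highest for wbl and Crc. The glycoprotein-folding sensor Ugt (Uggt) passed the test only when D1 replicate 1 was left out, with a log2 fold change 2.52 ± 0.31, adjusted p = 2.95e-04. The call of Crc did not hold without wild-type replicate 1 or 3 (adjusted p = 0.0537 to 0.0559).

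At the translocon and in the coats of ER and Golgi vesicles 4 of 39 tested genes rose and 0 fell (median log2 fold change 0.45), and 15 rose and 2 fell of 39 (median 0.35) without D1 replicate 1. Sec63 of the translocon stood at 112, 114 and 101 in wild type against 157, 270.2 and 281 in D1 (log2 fold change 1.11 ± 0.24, adjusted p = 0.0173) and its channel subunit Sec61alpha at 158, 192 and 186 in wild type against 248, 355 and 329.6 in D1 (log2 fold change 0.80 ± 0.21, adjusted p = 0.0373). The coatomer subunit deltaCOP rose from 138, 147 and 143 to 221, 390.0 and 390.3 (log2 fold change 1.23 ± 0.27, adjusted p = 0.0196), and the signal recognition particle subunit Srp9 from 41.1, 43.6 and 47.9 to 124, 81.4 and 65.5 (log2 fold change 1.03 ± 0.26, adjusted p = 0.0360). Signal peptide peptidase Spp, an intramembrane protease of the ER, rose from 420.3, 509.6 and 449.6 to 703, 1149.9 and 1075. No gene of this list fell with all libraries, and the groups did not overlap for any of these 5, as for nearly all called rises. The calls of Sec63, Sec61alpha, deltaCOP and Spp did not hold without wild-type replicate 1, 2 or 3, or D1 replicate 2 or 3 (adjusted p = 0.0606 to 0.187). The call of Srp9 did not hold without wild-type replicate 1, 2 or 3, or D1 replicate 2 (adjusted p = 0.0667 to 0.151).

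Apart from the loss of Tmtc1, the glycosylation genes that passed rose: 6 of 50 tested genes rose and 1 fell (median log2 fold change 0.24), and 15 rose and 5 fell of 50 (median 0.41) without D1 replicate 1. The list median by library was -0.15 in D1 replicate 1 and 0.40 and 0.41 in replicates 2 and 3. The protein O-fucosyltransferase O-fut2 stood at 15.7, 15.2 and 19.3 in wild type against 47.2, 79.5 and 73.7 in D1 (log2 fold change 2.00 ± 0.32, adjusted p = 0.00311). CG1291 (Alg2) and CG5287 (Alg7), of the assembly of the lipid-linked N-glycan precursor, both rose (log2 fold changes 1.14, adjusted p = 0.00615, and 0.89, adjusted p = 0.00998). The groups lay apart for all 3, as for nearly all called rises. Mgat1, which starts complex N-glycans in the Golgi, rose from 14.1, 18.9 and 15.2 to 30.0, 70.3 and 67.9 (log2 fold change 1.80 ± 0.36, adjusted p = 0.0109). The call of CG5287 did not hold without wild-type replicate 1, 2 or 3 (adjusted p = 0.0642 to 0.0736). The call of Mgat1 did not hold without wild-type replicate 1 or 3 (adjusted p = 0.0584 to 0.0619).

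Later parts of the route moved without a common direction. Of 34 tethering factors and golgins 0 were called with all libraries (6 at an unadjusted p under 0.05, and 4 by DESeq2), and without D1 replicate 1 10 rose and 1 fell of 34 (median 0.45); the list median by library was -0.54 in D1 replicate 1 and 0.42 and 0.44 in replicates 2 and 3. Among clathrin, adaptor and retromer genes 2 of 31 tested genes rose and 3 fell (median log2 fold change 0.17), and 11 rose and 4 fell of 31 (median 0.37) without D1 replicate 1. The sorting nexin Snx1, of endosome-to-Golgi recycling, fell from 326, 331 and 339 to 83.2, 89.9 and 99.8 (log2 fold change -1.87 ± 0.19, adjusted p = 2.95e-04), while the retromer subunit Vps29 rose from 13.97, 7.78 and 9.47 to 49.7, 27.1 and 21.1 (log2 fold change 1.65 ± 0.38, adjusted p = 0.0220). The clathrin adaptor subunit AP-2mu, of endocytosis, fell (log2 fold change -0.94 ± 0.20, adjusted p = 0.0144). The call of Vps29 did not hold without wild-type replicate 2 or 3 (adjusted p = 0.106 to 0.112). The call of AP-2mu did not hold without wild-type replicate 1, 2 or 3, or D1 replicate 2 (adjusted p = 0.0640 to 0.0752).

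Of 24 Rab GTPases, which direct vesicles to their targets, 3 rose, RabX6 (1.68, adjusted p = 0.0265), Rab39 (1.43, adjusted p = 0.0398) and Rab8 (0.82, adjusted p = 0.0406), all given as log2 fold changes. Without D1 replicate 1, 2 rose and 4 fell of 24 (median -0.079). Of 17 subunits of the V-ATPase, which acidifies vesicles, 1 rose with all libraries, beside 6.14% of all tested genes. It was the neuronal-type subunit Vha100-1, at 35.8, 34.7 and 32.7 in wild type against 42.5, 140.5 and 131 in D1 (log2 fold change 1.61 ± 0.40, adjusted p = 0.0305). D1 replicate 1 was close to wild type for it. With that library left out, 1 rose and 4 fell of 17 (median -0.18). Without scaling factors as well, 10 rose and 0 fell (median 0.75), where the median gene lay at 0.93. Autophagy (25 genes) and ESCRT (18 genes) had 0 calls with all libraries, with 2 and 0 genes at an unadjusted p under 0.05 and 1 and 0 called by DESeq2. The call of RabX6 did not hold without wild-type replicate 1 or 3, or D1 replicate 2 (adjusted p = 0.0781 to 0.126). The call of Rab39 did not hold without wild-type replicate 1, 2 or 3, or D1 replicate 1, 2 or 3 (adjusted p = 0.0501 to 0.168). The calls of Rab8 and Vha100-1 did not hold without wild-type replicate 1, 2 or 3, or D1 replicate 2 or 3 (adjusted p = 0.0837 to 0.199).

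Among lysosomal genes 2 of 25 tested genes rose and 4 fell (median log2 fold change -0.015), and 5 rose and 6 fell of 25 (median 0.052) without D1 replicate 1. Beside GILT3 and Gal, which were nearly lost, the cysteine protease CtsB1 (CtsB) rose from 187, 203 and 194 to 465, 486 and 437 (log2 fold change 1.25 ± 0.21, adjusted p = 0.00463) and CG9796 (GILT1), of the same family as GILT3, from 93.9, 94.2 and 84.5 to 232, 207 and 149.9 (log2 fold change 1.11 ± 0.26, adjusted p = 0.0233). The class II phosphoinositide kinase Pi3K68D, which makes signalling lipids of membranes, stood at 38.9, 30.1 and 36.9 in wild type against 649, 251 and 247 in D1 (log2 fold change 3.44 ± 0.43, adjusted p = 8.77e-04), highest in D1 replicate 1. The call of CG9796 did not hold without wild-type replicate 1, 2 or 3, or D1 replicate 2 (adjusted p = 0.0699 to 0.121). Pi3K68D had a log2 fold change of 2.82 without D1 replicate 1.

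Genes of regulated, granule-based secretion changed in both directions: 4 of 17 tested genes rose and 1 fell (median log2 fold change 0.29). The convertase chaperone 7B2 rose from 0.205, 0 and 0.769 to 28.0, 30.1 and 14.9 (log2 fold change 6.15 ± 0.78, adjusted p = 9.67e-04) and the synaptotagmin Syt4 from 0.205, 0.755 and 0.192 to 5.32, 4.48 and 7.95 (log2 fold change 3.95 ± 0.61, adjusted p = 0.00276). The vesicle-priming factor unc-13 fell from 16.9, 13.996 and 18.4 to 6.95, 4.28 and 3.62 (log2 fold change -1.74 ± 0.30, adjusted p = 0.00550). Among SNAREs, which fuse vesicles with membranes, 3 of 33 rose and 0 fell, with the smallest p for the synaptobrevin nSyb (log2 fold change 1.64 ± 0.29, adjusted p = 0.00558) and the larger change for cpx (complexin, log2 fold change 3.03 ± 0.64, adjusted p = 0.0139). The SNARE counts were 4 rose and 3 fell of 33 (median -0.20) without D1 replicate 1. Of 22 neuronal genes listed 13 were tested, 3 rose and 1 fell, those 4 being nSyb, cpx, Caps and unc-13. The list median log2 fold change was 1.13, with 10 of the 13 above 0. By library the median was 0.59 in D1 replicate 1 and 0.70 and 1.00 in replicates 2 and 3. The marker elav went the other way, by -0.11 on the log2 scale (adjusted p = 0.901). The neuronal list took 0.0109 to 0.0132% of counts before scaling in wild type and 0.0246 to 0.0334% in D1. Its part in these rises was not tested. The call of cpx did not hold without wild-type replicate 2 or 3, or D1 replicate 2 (adjusted p = 0.0576 to 0.0839). 7B2 had a log2 fold change of 7.75 without wild-type replicate 3. Syt4 had a log2 fold change of 4.86 without wild-type replicate 2. cpx had a log2 fold change of 3.89 without wild-type replicate 1.

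**Figure D3:**
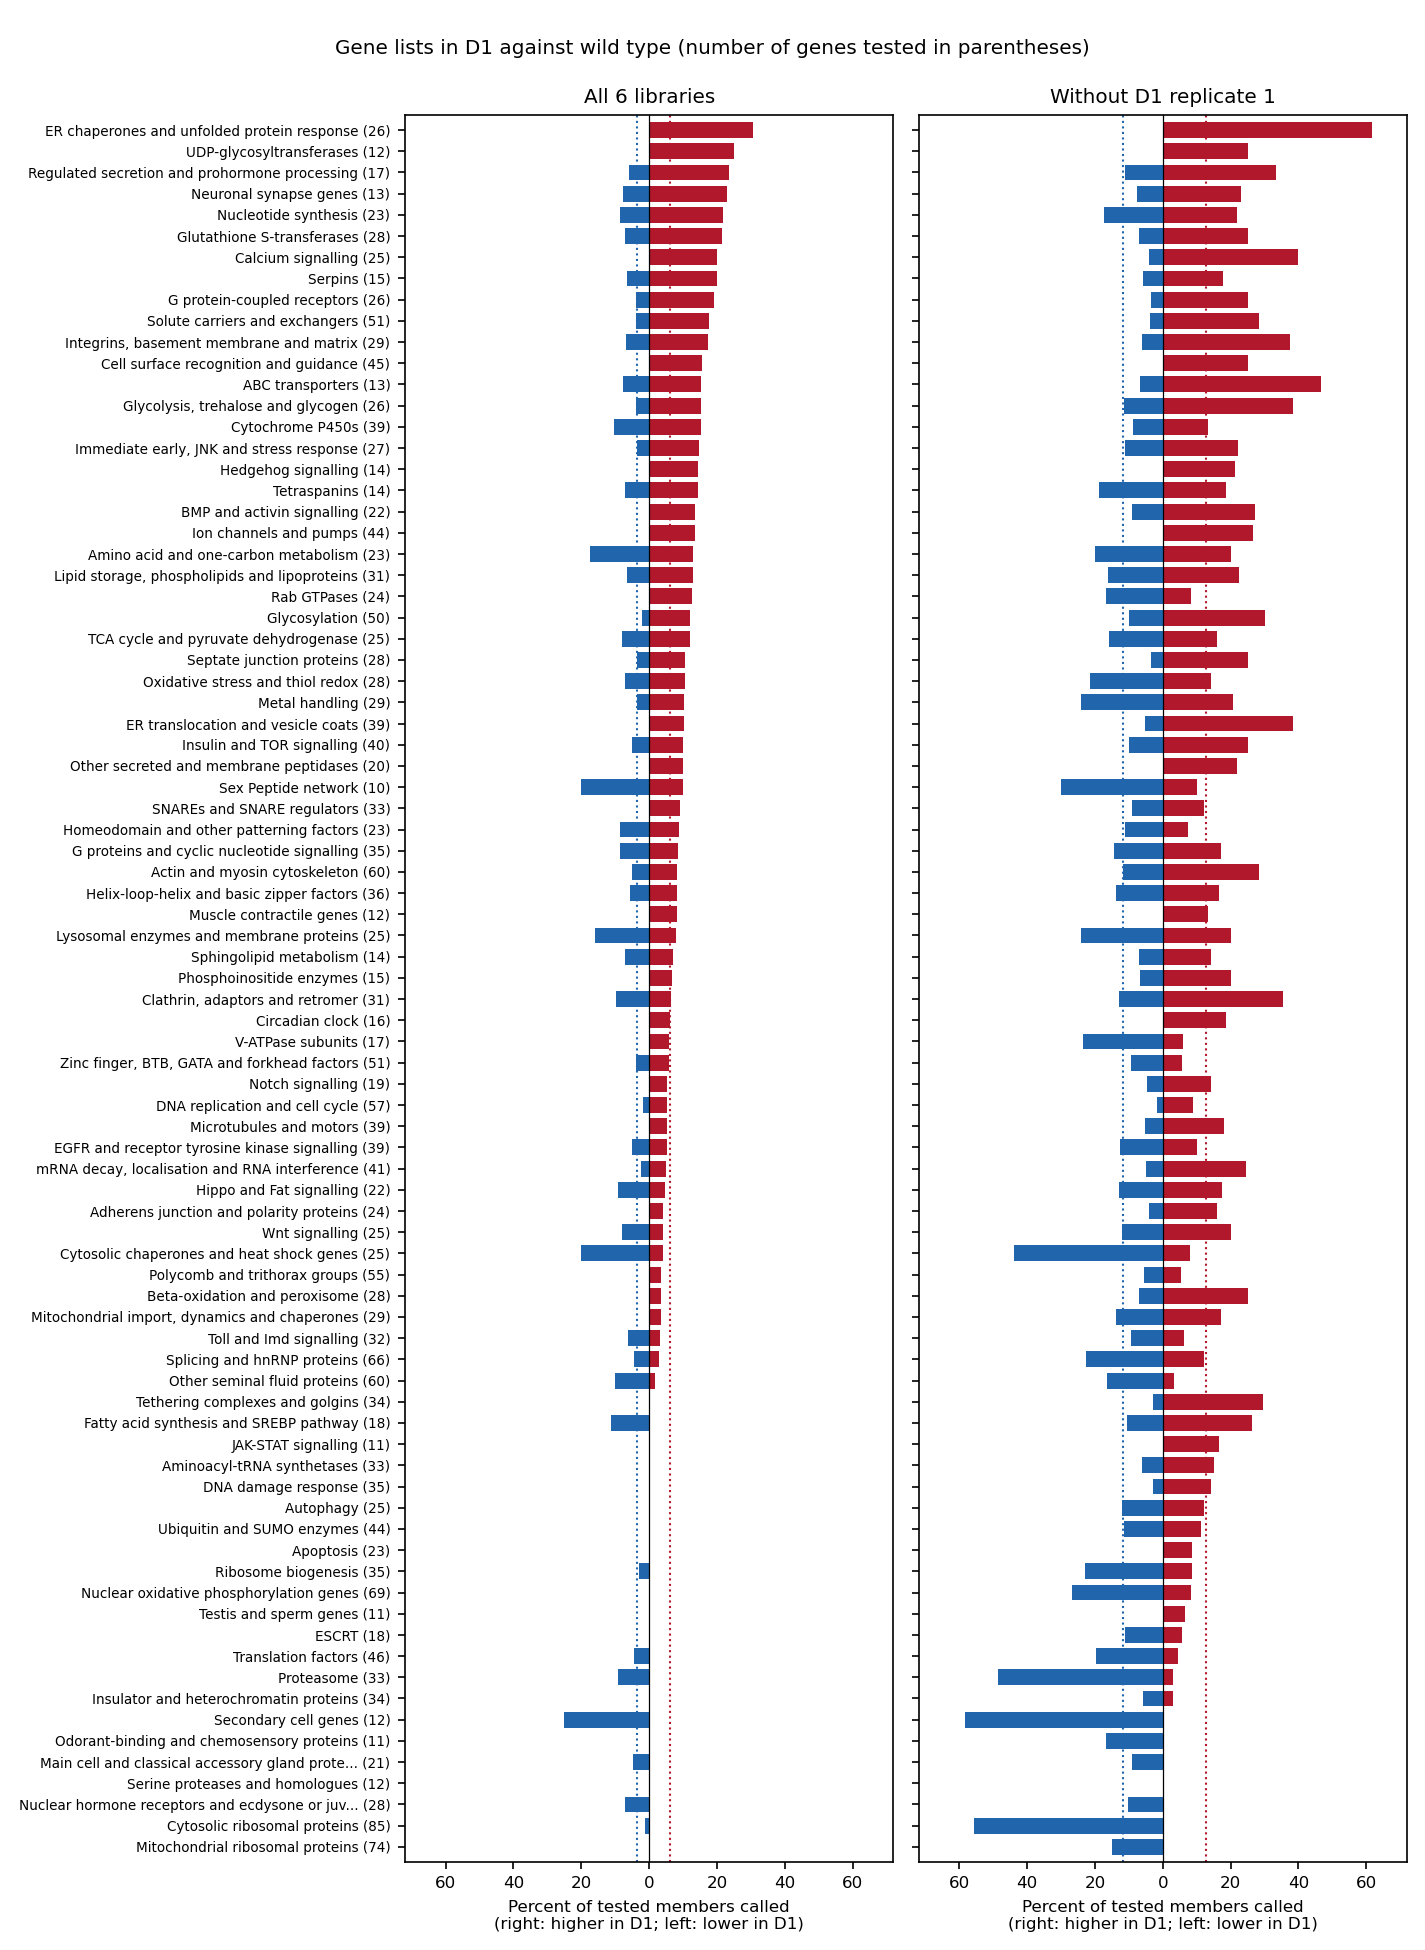
Percent of the tested members of each gene list that rose (red, right) or fell (blue, left) in D1, with all 6 libraries and without D1 replicate 1, for lists of at least 10 tested genes. Dotted lines mark the percent of all tested genes called: 6.14 and 3.62% with all libraries, 12.7 and 11.6% without D1 replicate 1. ER chaperones lead the rises in both panels, and the ribosomal protein, proteasome and secondary cell lists stand out to the left only in the right panel or more so there.

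The cell's surface and matrix differed at many points. Among integrins, basement membrane and matrix genes 5 of 29 tested genes rose and 2 fell (median log2 fold change 0.84), and 12 rose and 2 fell of 32 (median 0.95) without D1 replicate 1. Nidogen, Ndg, a linker of the basement membrane, stood at 1.38, 0.581 and 0.0481 normalised CPM in wild type against 25.7, 132 and 138 in D1 (log2 fold change 7.20 ± 0.97, adjusted p = 0.00134). The basement membrane proteoglycan perlecan, trol, differed in the other direction, from 17.7, 19.5 and 14.8 to 1.79, 0.713 and 1.87 (log2 fold change -3.57 ± 0.39, adjusted p = 3.76e-04). The matrix metalloprotease Mmp1 rose from 20.0, 17.7 and 13.98 to 36.4, 52.5 and 41.9 (log2 fold change 1.34 ± 0.24, adjusted p = 0.00681) and the collagen XV/XVIII homologue Mp from 1.18, 0.0581 and 0.144 to 5.95, 7.57 and 11.4 (log2 fold change 4.15 ± 0.97, adjusted p = 0.0238). The call of Mmp1 did not hold without wild-type replicate 3 (adjusted p = 0.0542). The call of Mp did not hold without wild-type replicate 2 or 3, or D1 replicate 2 or 3 (adjusted p = 0.0609 to 0.105). Ndg had a log2 fold change of 8.34 without wild-type replicate 1. Mp had a log2 fold change of 6.24 without wild-type replicate 1.

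Among cell surface recognition genes 7 of 45 tested genes rose and 0 fell (median log2 fold change 0.48), and 12 rose and 0 fell of 48 (median 0.69) without D1 replicate 1. Of 109 genes listed, 64 had too few counts to be tested with all libraries. Low genes can pass the filter through the group where they are higher, which favours rises over falls. The leucine-rich repeat protein kek5, known to modulate BMP signalling, rose from 15.9, 15.9 and 12.3 to 25.4, 66.2 and 71.0 (log2 fold change 1.88 ± 0.36, adjusted p = 0.00906), and the secreted semaphorin Sema-2a from 0.358, 0.348 and 0.384 to 2.11, 3.67 and 4.66 (log2 fold change 3.24 ± 0.64, adjusted p = 0.0105). ImpL2, a secreted insulin-binding protein, rose (log2 fold change 1.59 ± 0.32, adjusted p = 0.0114). Of 14 tetraspanins, which organise membrane domains, Tsp42Ea (2.21, adjusted p = 0.00158) and Tsp66E (1.71, adjusted p = 0.00163) rose and Tsp26A (-1.37, adjusted p = 0.00276) fell, as log2 fold changes. The call of kek5 did not hold without wild-type replicate 3 (adjusted p = 0.0582). The calls of Sema-2a and ImpL2 did not hold without wild-type replicate 2 or 3 (adjusted p = 0.0559 to 0.0698).

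At cell junctions single members changed. The gap junction subunit Inx2 rose from 1.38, 1.68 and 2.11 to 11.7, 5.98 and 11.0 (log2 fold change 2.46 ± 0.39, adjusted p = 0.00305). Among septate junction proteins, which seal the epithelium, 3 of 28 tested genes rose and 1 fell (median log2 fold change 0.16): nrv2 of the sodium pump (1.86, adjusted p = 0.00116), pck (0.85, adjusted p = 0.0120) and Ssk (1.24, adjusted p = 0.0306) rose and the adhesion protein Nrg fell (-0.90, adjusted p = 0.0127). In the actin cytoskeleton 5 of 60 tested genes rose and 3 fell (median log2 fold change 0.28), and 17 rose and 7 fell of 60 (median 0.24) without D1 replicate 1. The GTPase Rac1 rose from 40.3, 50.2 and 42.4 to 138, 126 and 125 (log2 fold change 1.55 ± 0.19, adjusted p = 9.11e-04) and the bundling protein fascin, sn, from 18.4, 15.3 and 15.6 to 47.2, 58.7 and 60.2, while the actin nucleators spir, from 6.45, 11.96 and 7.98 to 0.895, 0.543 and 1.13, and form3, from 61.5, 52.6 and 48.5 to 13.95, 20.6 and 21.2, fell (-3.35, adjusted p = 9.80e-04, and -1.54, adjusted p = 0.00216, as log2 fold changes). The microtubule-binding protein tau rose from 1.13, 0.581 and 1.87 to 12.9, 10.7 and 12.6 (log2 fold change 3.32 ± 0.46, adjusted p = 0.00158). The calls of pck and Ssk did not hold without wild-type replicate 1, 2 or 3 (adjusted p = 0.0736 to 0.123). The call of Nrg did not hold without wild-type replicate 1, 2 or 3, or D1 replicate 2 (adjusted p = 0.0572 to 0.0761).

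Receptors for amines and peptides held some large rises. Of 80 G protein-coupled receptors listed, 54 had too few counts to be tested with all libraries. A receptor near 0 in wild type can pass the filter only through a group where it is higher, which favours rises over falls. Among G protein-coupled receptors 5 of 26 tested genes rose and 1 fell (median log2 fold change 0.33), and 7 rose and 1 fell of 28 (median 0.65) without D1 replicate 1. The octopamine and tyramine receptor Oct-TyrR stood at 4.15, 5.46 and 5.29 normalised CPM in wild type against 72.5, 90.2 and 99.6 in D1 (log2 fold change 4.14 ± 0.28, adjusted p = 2.85e-05). The beta-adrenergic-like octopamine receptor Octbeta3R rose from 6.81, 11.7 and 9.95 to 33.0, 41.5 and 33.8 (log2 fold change 1.93 ± 0.29, adjusted p = 0.00216) and Octbeta2R from 0.307, 0.290 and 0.0481 to 16.1, 8.08 and 9.64 (log2 fold change 5.70 ± 0.89, adjusted p = 0.00289). The pyrokinin receptor PK2-R1 went from 1 count in all wild-type libraries together to 6.21, 5.36 and 4.15 normalised CPM (log2 fold change 7.83 ± 0.93, adjusted p = 6.65e-04). The groups were apart for all 4, as for nearly all called rises. Tre1, a receptor of migrating germ cells, fell (log2 fold change -1.03 ± 0.19, adjusted p = 0.00847). The call of Tre1 did not hold without wild-type replicate 3 or D1 replicate 2 (adjusted p = 0.05004 to 0.0607). PK2-R1 had a log2 fold change of 9.84 without wild-type replicate 1.

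Downstream of such receptors both directions occurred: 3 of 35 tested genes rose and 3 fell (median log2 fold change 0.028). The phosphodiesterase Pde6 rose from 10.2, 11.7 and 13.4 to 53.3, 65.9 and 76.6 (log2 fold change 2.47 ± 0.25, adjusted p = 2.50e-04) while Pde9, which hydrolyses cGMP in other animals, fell from 6.35, 7.20 and 4.18 to 1.00, 1.15 and 0.564 (log2 fold change -2.71 ± 0.39, adjusted p = 0.00178). The guanylyl cyclase subunit Gycbeta100B rose (log2 fold change 3.46 ± 0.57, adjusted p = 0.00407) and the G protein gamma subunit Ggamma30A fell (log2 fold change -1.77 ± 0.31, adjusted p = 0.00559). In calcium signalling 5 of 25 tested genes rose and 0 fell (median log2 fold change 0.27), and 10 rose and 1 fell of 25 (median 0.45) without D1 replicate 1. The calcium release channel of the ER, RyR, stood at 0.205, 0.639 and 0.625 in wild type against 5.27, 18.2 and 19.7 in D1 (log2 fold change 4.87 ± 0.68, adjusted p = 0.00157), and the calsyntenin Cals rose from 22.6, 17.7 and 17.1 to 63.3, 87.1 and 111 (log2 fold change 2.19 ± 0.26, adjusted p = 6.43e-04).

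In insulin and TOR signalling 4 of 40 tested genes rose and 2 fell (median log2 fold change 0.064), and 10 rose and 4 fell of 40 (median 0.26) without D1 replicate 1. The insulin receptor InR stood at 8.29, 7.72 and 8.41 normalised CPM in wild type against 85.7, 55.1 and 56.2 in D1 (log2 fold change 3.01 ± 0.31, adjusted p = 2.96e-04), an 8.06-fold rise. The TOR pathway members RagA-B (2.41, adjusted p = 0.00681) and Lst8 (1.26, adjusted p = 0.00896) rose, and the relaxin-like peptide Ilp8 fell from 9.47, 5.40 and 5.57 to 1.05, 0.441 and 0.920 (log2 fold change -3.09 ± 0.50, adjusted p = 0.00343). The call of Lst8 did not hold without wild-type replicate 1 or 3 (adjusted p = 0.0547 to 0.0584).

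With all libraries, BMP and activin genes showed 3 rises of 22 and 0 falls, all of secreted factors that were near 0 in wild type. Without D1 replicate 1, 6 rose and 2 fell of 22 (median 0.063). The BMP antagonist sog rose from 0.205, 0.813 and 0.0481 to 28.6, 17.9 and 25.5 (log2 fold change 6.11 ± 0.94, adjusted p = 0.00276), the activin-like ligand daw from 0.307, 0.581 and 0.432 to 4.90, 4.75 and 7.15 (log2 fold change 3.66 ± 0.69, adjusted p = 0.00847) and the BMP ligand dpp from 0.256, 0.407 and 0.0961 to 2.47, 2.89 and 2.14 (log2 fold change 3.29 ± 0.90, adjusted p = 0.0461). Hedgehog genes had 2 rises of 14, the effector ci (3.24, adjusted p = 0.0349) and the receptor ptc (1.34, adjusted p = 0.0435). Of receptor tyrosine kinase genes, Egfr fell from 2.35, 3.19 and 4.61 to 0.263, 0.475 and 0.979 (log2 fold change -2.52 ± 0.52, adjusted p = 0.0132) and the FGF ligand pyr from 49.6, 45.5 and 41.1 to 21.2, 15.5 and 19.8 (log2 fold change -1.27 ± 0.21, adjusted p = 0.00401), while the phosphatase csw rose (log2 fold change 1.63 ± 0.38, adjusted p = 0.0224). Calls were few in other pathways. On the Wnt list 1 of 25 tested genes rose and 2 fell (median log2 fold change -0.005), and 5 rose and 3 fell of 25 (median 0.10) without D1 replicate 1. On the Notch list 1 of 19 tested genes rose and 0 fell (median log2 fold change -0.047). For Hippo and Fat 1 of 22 tested genes rose and 2 fell (median log2 fold change -0.031), and 4 rose and 3 fell of 23 (median 0.30) without D1 replicate 1. For Toll and Imd 1 of 32 tested genes rose and 2 fell (median log2 fold change 0.051). There were 0 calls of 11 for JAK-STAT by edgeR, by DESeq2 or at an unadjusted p under 0.05. The Imd inhibitor pirk fell from 37.7, 31.5 and 32.5 to 6.95, 11.1 and 13.3 (log2 fold change -1.70 ± 0.27, adjusted p = 0.00299). The calls of dpp, ptc and csw did not hold without wild-type replicate 1, 2 or 3, or D1 replicate 2 or 3 (adjusted p = 0.0598 to 0.192). The call of ci did not hold without wild-type replicate 1 or 2, or D1 replicate 2 or 3 (adjusted p = 0.0888 to 0.149). The call of Egfr did not hold without wild-type replicate 3 or D1 replicate 2 (adjusted p = 0.0622 to 0.0643). sog had a log2 fold change of 7.52 without wild-type replicate 2. ci had a log2 fold change of 4.88 without wild-type replicate 3. Egfr had a log2 fold change of -3.11 without D1 replicate 3.

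Transport across membranes held more rises than falls among the genes that passed, as did all tested genes (6.14% rose and 3.62% fell). Among solute carriers and exchangers 9 of 51 tested genes rose and 2 fell (median log2 fold change 0.43), and 15 rose and 2 fell of 53 (median 0.68) without D1 replicate 1. Glut3 of the Bithorax complex was among the falls of both fits. The solute carrier median by library was -0.14 in D1 replicate 1 and 0.49 and 0.40 in replicates 2 and 3. The sodium-proton exchangers Nhe3 (94.3, 72.5 and 88.4 in wild type against 471, 388 and 410.1 in D1) and Nha1 (2.56, 2.85 and 3.84 in wild type against 16.3, 49.1 and 36.4 in D1) rose (2.31, adjusted p = 1.40e-04, and 3.46, adjusted p = 0.00129, as log2 fold changes). Carbonic anhydrase CAH1, which hydrates carbon dioxide, rose from 0.307, 0.465 and 0.336 to 16.5, 20.9 and 21.1 (log2 fold change 5.71 ± 0.39, adjusted p = 2.85e-05), and the transporter CG11665 (hrm) from 8.96, 8.42 and 10.2 to 29.3, 33.1 and 40.9 (log2 fold change 1.90 ± 0.25, adjusted p = 0.00121). Among ion channels and pumps 6 of 44 tested genes rose and 0 fell (median log2 fold change 0.65), with the potassium channel Ork1 at 2.66, 0.929 and 1.30 in wild type against 6.63, 25.3 and 28.8 in D1 (log2 fold change 3.63 ± 0.68, adjusted p = 0.00805) and the mechanosensitive channel nompC at 0.102, 0 and 0.0481 in wild type against 2.37, 2.07 and 1.63 in D1 (log2 fold change 5.14 ± 1.01, adjusted p = 0.0100). The ion channel median was 0.012 in D1 replicate 1 and 0.64 and 0.75 in replicates 2 and 3. Without D1 replicate 1, 13 of 49 channel and pump genes rose and 0 fell (median 0.80). Of 90 channel and pump genes listed, 46 had too few counts to be tested with all libraries. As for the receptors, the filter favours rises among low genes. The zinc transporters went in both directions: ZnT86D, of the secretory route, rose from 24.2, 24.3 and 27.3 to 62.6, 75.8 and 88.5 (log2 fold change 1.58 ± 0.21, adjusted p = 0.00117) and the importer Zip88E fell from 39.3, 35.6 and 35.3 to 14.6, 13.5 and 14.9 (log2 fold change -1.36 ± 0.19, adjusted p = 0.00178). The call of Ork1 did not hold without wild-type replicate 3 (adjusted p = 0.0510). The call of nompC did not hold without wild-type replicate 2 or 3 (adjusted p = 0.0513 to 0.0635). nompC had a log2 fold change of 6.002 without wild-type replicate 1.

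Lipid genes changed in both directions. Among storage and phospholipid genes 4 of 31 tested genes rose and 2 fell (median log2 fold change 0.32), and 7 rose and 5 fell of 31 (median 0.49) without D1 replicate 1. The lipid phosphate phosphatase laza rose from 31.0, 29.04 and 27.1 to 93.2, 247 and 199 (log2 fold change 2.63 ± 0.34, adjusted p = 0.00107) and mdy, the diacylglycerol acyltransferase that makes storage fat, from 2.46, 2.03 and 1.87 to 8.899, 12.4 and 8.81 (log2 fold change 2.24 ± 0.34, adjusted p = 0.00257). The phosphatidylinositol transfer protein vib fell from 204, 199 and 199.5 to 87.1, 47.4 and 48.2 (log2 fold change -1.72 ± 0.27, adjusted p = 0.00311). Of 18 fatty acid synthesis genes 2 fell and 0 rose, the elongase CG5278 (sit), from 54.5, 57.3 and 54.2 to 10.3, 8.86 and 9.67 (log2 fold change -2.53 ± 0.22, adjusted p = 1.39e-04), and CG6746 (Hacd1) (log2 fold change -0.97 ± 0.25, adjusted p = 0.0359). The balance of that list turned without D1 replicate 1: 5 rose and 2 fell of 19 (median 0.14). The call of CG6746 did not hold without wild-type replicate 1, 2 or 3, or D1 replicate 2 or 3 (adjusted p = 0.105 to 0.148).

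In carbohydrate metabolism 4 of 26 tested genes rose and 1 fell (median log2 fold change 0.06), and 10 rose and 3 fell of 26 (median 0.18) without D1 replicate 1. The glycolytic enzyme Gapdh2 rose from 148, 147 and 153 to 371, 338 and 351 (log2 fold change 1.24 ± 0.18, adjusted p = 0.00186). Zw, the first enzyme of the pentose phosphate pathway, rose from 1.07, 0.407 and 1.15 to 6.69, 8.62 and 7.27 (log2 fold change 3.08 ± 0.53, adjusted p = 0.00490), as did Rpi of the same pathway. Around the citric acid cycle 3 of 25 tested genes rose and 2 fell (median log2 fold change 0.013): malic enzyme Men, a source of NADPH, fell from 1052, 967 and 963 to 125, 333 and 309.7 (log2 fold change -1.96 ± 0.35, adjusted p = 0.00610) and the succinyl-CoA synthetase subunit Sucb (ScsbetaG) from 32.5, 30.5 and 30.2 to 11.6, 7.84 and 9.28 (log2 fold change -1.70 ± 0.22, adjusted p = 0.00105), while CG1516 (PCB, pyruvate carboxylase) rose (log2 fold change 2.06 ± 0.47, adjusted p = 0.0220). The call of CG1516 did not hold without wild-type replicate 1, 2 or 3, or D1 replicate 2 or 3 (adjusted p = 0.0658 to 0.103).

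Among nucleotide synthesis genes 5 of 23 tested genes rose and 2 fell (median log2 fold change 0.043), and without D1 replicate 1 5 rose and 4 fell of 23 (median 0.17). The smallest p values were those of purine enzymes. Adenylate kinase Adk1 stood at 28.2, 26.7 and 29.02 in wild type against 235, 200.3 and 132 in D1 (log2 fold change 2.76 ± 0.25, adjusted p = 1.40e-04) and adenylosuccinate synthetase AdSS rose from 12.5, 13.8 and 14.03 to 53.2, 77.4 and 92.7 (log2 fold change 2.47 ± 0.25, adjusted p = 2.95e-04). The ribonucleotide reductase subunits RnrL and RnrS rose (2.32, adjusted p = 0.00230, and 4.28, adjusted p = 0.00452, as log2 fold changes), beside PCNA (3.96, adjusted p = 0.00185) among 57 replication and cell cycle genes, of which 3 rose and 1 fell. In amino acid metabolism 3 of 23 tested genes rose and 4 fell (median log2 fold change -0.054). The transaminase Got1 rose (log2 fold change 1.53 ± 0.24, adjusted p = 0.00290), and Eip55E (Cth, cystathionine gamma-lyase), CG4300 (Sms, spermine synthase) and Oat, ornithine aminotransferase, fell (-1.27, adjusted p = 0.00340, -1.09, adjusted p = 0.00615, and -1.05, adjusted p = 0.00714, as log2 fold changes). PCNA had a log2 fold change of 4.76 without wild-type replicate 1.

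Detoxification genes held several of the larger rises. Among glutathione S-transferases 6 of 28 tested genes rose and 2 fell (median log2 fold change 0.50), and 7 rose and 2 fell of 28 (median 0.27) without D1 replicate 1. GstT4 stood at 3.22, 2.26 and 2.11 in wild type against 52.3, 47.1 and 27.6 in D1 (log2 fold change 4.06 ± 0.34, adjusted p = 1.14e-04), GstE9 at 11.1, 5.05 and 2.98 in wild type against 84.6, 44.5 and 37.0 in D1 (log2 fold change 3.12 ± 0.50, adjusted p = 0.00367) and GstE6 at 39.7, 27.4 and 37.1 in wild type against 264, 102 and 111 in D1 (log2 fold change 2.19 ± 0.39, adjusted p = 0.00592). D1 replicate 1 was the highest library for each of the 3. Of 12 UDP-glycosyltransferases 3 rose and 0 fell. The neighbours CG17322 (Ugt36E1) and CG17323 (Ugt36D1) rose from 0.256, 0.116 and 0.481 to 6.90, 7.71 and 6.64 and from 1.28, 0.755 and 0.721 to 29.5, 46.4 and 43.3 (4.59, adjusted p = 4.85e-04, and 5.43, adjusted p = 0.00160, as log2 fold changes). Among cytochrome P450s 6 of 39 tested genes rose and 4 fell (median log2 fold change -0.039): against the near loss of Cyp6d5, Cyp6a17 rose from 0.665, 0.348 and 0.721 to 7.69, 8.11 and 10.4 (log2 fold change 3.89 ± 0.50, adjusted p = 0.00101) and Cyp305a1 from 3.17, 2.09 and 1.30 to 14.3, 27.8 and 21.1 (log2 fold change 3.27 ± 0.43, adjusted p = 0.00114). Reads of near-identical copies may be shared within these families, so the split among members is uncertain. GstE9 had a log2 fold change of 3.78 without wild-type replicate 1. CG17322 had a log2 fold change of 5.19 without wild-type replicate 3.

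Enzymes that make reactive oxygen species rose as well, the NADPH oxidase Nox from 8.96, 12.02 and 12.97 to 30.2, 152 and 193 (log2 fold change 3.47 ± 0.67, adjusted p = 0.00949) and Duox from 0.665, 0.0581 and 0 to 2.16, 8.52 and 13.6 (log2 fold change 5.03 ± 1.24, adjusted p = 0.0301), most in D1 replicates 2 and 3. The glutamate-cysteine ligase subunit Gclm, for glutathione synthesis, fell (log2 fold change -1.36 ± 0.24, adjusted p = 0.00623). Of 15 serpins, inhibitors of serine proteases, 3 rose and 1 fell, with Spn42De at 5.58, 10.5 and 9.37 in wild type against 56.8, 49.3 and 51.6 in D1 (log2 fold change 2.63 ± 0.34, adjusted p = 0.00106) and Spn27A at 4.81, 6.16 and 5.57 in wild type against 18.5, 25.9 and 19.8 in D1 (log2 fold change 1.96 ± 0.33, adjusted p = 0.00452). The call of Nox did not hold without wild-type replicate 1 or 2 (adjusted p = 0.0503 to 0.0508). The call of Duox did not hold without wild-type replicate 2 or 3, or D1 replicate 2 or 3 (adjusted p = 0.0774 to 0.128). Duox had a log2 fold change of 7.97 without wild-type replicate 1 and 4.44 without wild-type replicate 3.

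Among transcription factors, 2 of 23 tested genes rose and 2 fell (median log2 fold change 0.13) on the list of homeodomain and patterning factors. The Hox cofactor exd rose from 10.6, 10.5 and 9.75 to 35.8, 30.4 and 46.4 (log2 fold change 1.87 ± 0.28, adjusted p = 0.00217), and the BarH homeodomain pair B-H1, from 6.76, 7.14 and 6.82 to 0.369, 0.917 and 2.25, and B-H2, from 18.3, 16.5 and 13.4 to 3.21, 6.89 and 7.30, fell (-2.51, adjusted p = 0.0212, and -1.46, adjusted p = 0.0181, as log2 fold changes). For helix-loop-helix and zipper factors 3 of 36 tested genes rose and 2 fell (median log2 fold change 0.27): bigmax, a partner of sugar-sensing Mondo, fell from 78.0, 88.0 and 90.0 to 25.9, 25.2 and 19.0 (log2 fold change -1.87 ± 0.21, adjusted p = 4.15e-04), emc, an inhibitory helix-loop-helix protein, fell (log2 fold change -1.36 ± 0.20, adjusted p = 0.00217), and the Fos homologue kay (log2 fold change 1.35 ± 0.23, adjusted p = 0.00431) and the stress factor Xrp1 (log2 fold change 0.98 ± 0.23, adjusted p = 0.0235) rose. The transcription factor gene dmrt93B had 0 counts in wild type and 1.11, 1.19 and 1.04 normalised CPM in D1, at least 21.3-fold higher. The calls of B-H1 and dmrt93B did not hold without wild-type replicate 1, 2 or 3, or D1 replicate 2 (adjusted p = 0.0505 to 0.0888). The call of B-H2 did not hold without wild-type replicate 1 or 2 (adjusted p = 0.0712 to 0.0781). The call of Xrp1 did not hold without wild-type replicate 1, 2 or 3, or D1 replicate 2 or 3 (adjusted p = 0.0618 to 0.132). B-H1 had a log2 fold change of -3.34 without D1 replicate 3.

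Of 28 nuclear receptors and ecdysone or juvenile hormone response genes 2 fell and 0 rose, Eip78C (log2 fold change -1.11 ± 0.24, adjusted p = 0.0171) and Eip75B (log2 fold change -0.85 ± 0.23, adjusted p = 0.0418). Polycomb and trithorax genes had 2 rises of 55, the histone demethylase Kdm4B (1.36, adjusted p = 0.0229) and Jarid2 (1.04, adjusted p = 0.0383; log2 fold changes), and insulator and heterochromatin proteins 0 of 34 (2 at an unadjusted p under 0.05, 1 by DESeq2). In the Polycomb and trithorax list 3 rose and 3 fell without D1 replicate 1. Of RNA-binding genes, Rbp9, an ELAV family protein, fell from 67.7, 60.6 and 67.7 to 20.3, 19.8 and 21.6 (log2 fold change -1.67 ± 0.23, adjusted p = 0.00162), stau (log2 fold change 1.39 ± 0.24, adjusted p = 0.00539) and Fmr1 (log2 fold change 1.26 ± 0.24, adjusted p = 0.00893), which act in RNA localisation and translation, rose, and 3 splicing and hnRNP genes fell and 2 rose of 66. Apoptosis (23 genes), DNA damage response (35) and aminoacyl-tRNA synthetases (33) had 0 calls with all libraries. At an unadjusted p under 0.05 they held 4, 5 and 3 genes, and DESeq2 called 2, 4 and 1. The calls of Eip78C, Eip75B and Jarid2 did not hold without wild-type replicate 1, 2 or 3, or D1 replicate 2 or 3 (adjusted p = 0.0526 to 0.178). The call of Kdm4B did not hold without wild-type replicate 1, 2 or 3, or D1 replicate 3 (adjusted p = 0.0710 to 0.110). The call of Fmr1 did not hold without wild-type replicate 2 or 3 (adjusted p = 0.0559 to 0.0624).

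The cytosolic stress chaperones that passed mostly fell. Of 25 cytosolic chaperone and heat shock genes 5 fell and 1 rose, Hsc70-2 (median log2 fold change -0.38, and 0.28 without scaling factors, where the median gene lay at 0.70). Without D1 replicate 1, 11 fell and 2 rose of 25 (median -0.55). Beside stv, Hsp70Ba fell from 125, 134 and 91.0 to 11.5, 14.8 and 16.9 and DnaJ-1 from 513, 494 and 567 to 184, 77.4 and 110.0 (log2 fold changes -3.01 and -2.08, adjusted p = 3.58e-04 and 0.00198). Hsp70Ba shares reads with near-identical copies. The list median by library was -0.41 in D1 replicate 1 and -0.63 and -0.42 in replicates 2 and 3, so all D1 libraries lay on 1 side.

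**Figure D4:**
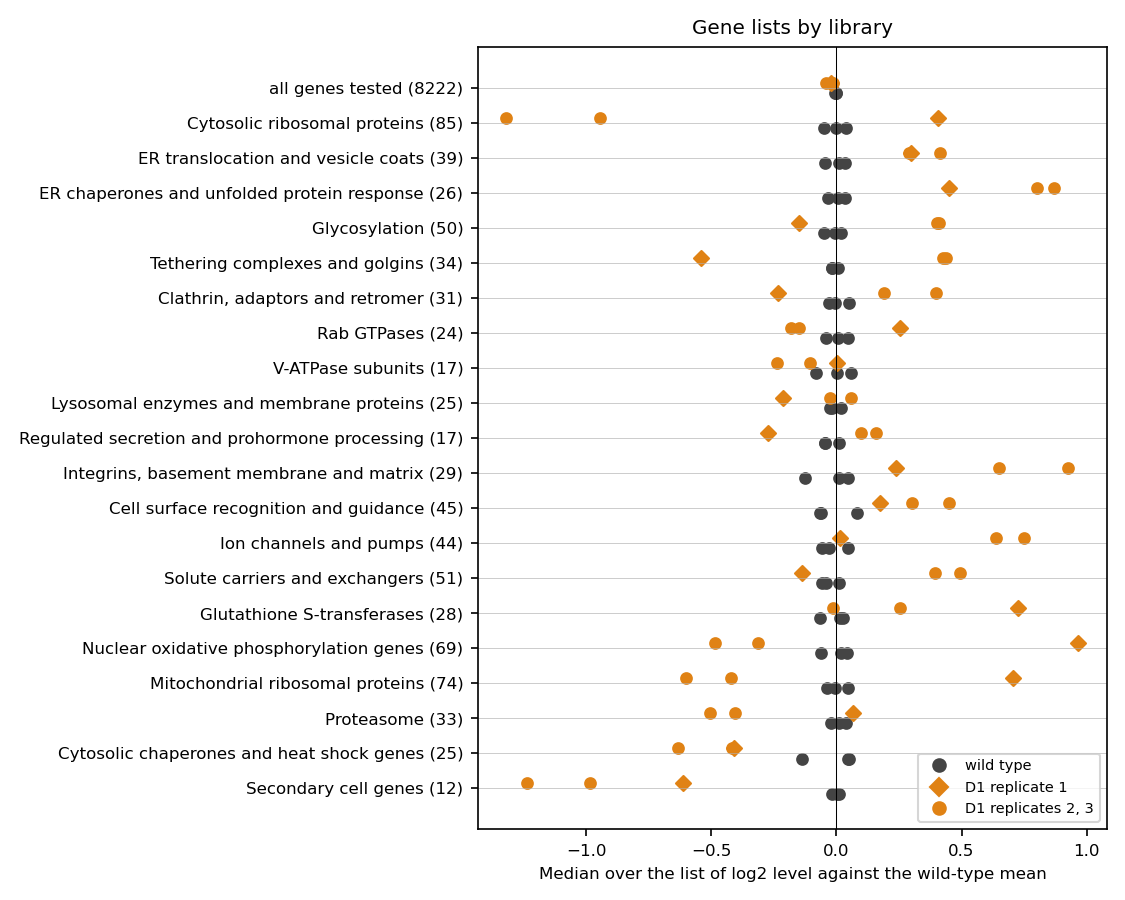
Median over the tested members of selected gene lists of the log2 level in each library against the mean of the wild-type libraries, with the number of genes in parentheses. Grey circles are wild-type libraries, orange diamonds D1 replicate 1 and orange circles D1 replicates 2 and 3. ER lists lie to the right in all D1 libraries, and ribosomal, mitochondrial ribosomal and oxidative phosphorylation lists lie on opposite sides in D1 replicate 1 and in the other replicates.

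Ribosomal protein and respiration genes did not show a change shared by the D1 libraries. Of 85 cytosolic ribosomal protein genes 0 rose and 1 fell with all libraries, RpL22, and 0 rose and 48 fell of 86 without D1 replicate 1. Their median by library was 0.41 in D1 replicate 1 and -0.94 and -1.32 in replicates 2 and 3, with wild-type medians between -0.048 and 0.039. Mitochondrial ribosomal proteins (0.71 in D1 replicate 1 and -0.42 and -0.60 in replicates 2 and 3) and nuclear oxidative phosphorylation genes (0.97 in D1 replicate 1 and -0.31 and -0.49 in replicates 2 and 3) split in the same way. They had 0 calls of 74 and of 69 with all libraries (4 and 10 at an unadjusted p under 0.05, 2 and 8 by DESeq2), and 0 rises and 11 falls of 74 and 6 rises and 19 falls of 71 without D1 replicate 1. Of 33 proteasome genes 0 rose and 3 fell, and without D1 replicate 1, 1 rose and 16 fell; without scaling factors the median of the all-library fit was 0.27 for the proteasome and 0.075 for the ribosome, in place of -0.36 and -0.42. Ribosome biogenesis genes did lie on 1 side in all D1 libraries, with list medians of -0.51 in D1 replicate 1 and -0.44 and -0.41 in replicates 2 and 3 and 1 called fall of 35, Non1 (log2 fold change -1.24, adjusted p = 0.0273). Their all-library median was -0.40, and 0.30 without scaling factors, where the median gene lay at 0.70. Without D1 replicate 1, 3 rose and 8 fell of 35 (median -0.52). The call of Non1 did not hold without wild-type replicate 1, 2 or 3, or D1 replicate 2 (adjusted p = 0.0676 to 0.115).

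These families of ribosomal protein and respiration genes consist of short genes, and levels moved with exonic length in opposite ways in the D1 libraries. In the shortest of 8 bins of genes (1022 genes, median 660 nt) the median log2 level against the wild-type mean was 0.66 in D1 replicate 1, and -0.76 and -0.88 in replicates 2 and 3. In the bin of median 4314.5 nt it was -0.51, and 0.26 and 0.38. Wild-type libraries stayed between -0.056 and 0.062 in all 8 bins. Across genes, Spearman's rho of log2 fold change and length was 0.160 with all libraries and 0.396 without D1 replicate 1, where the median length was 3206 nt for rises and 1251 nt for falls. Genes are not independent replicates, and no p is given.

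With gene length as a term in each library's offsets, 0 rose and 36 fell (median -0.67) of the ribosomal genes without D1 replicate 1, and 15 rose and 7 fell (median 0.063) of the oxidative phosphorylation genes. The ER chaperone list kept its side with these offsets: 14 rose and 1 fell with all libraries, and 15 rose and 0 fell (median 0.59) without D1 replicate 1. For golgins and tethers the count without D1 replicate 1 was 8 rose and 1 fell (median 0.23). Some balances of the fit without D1 replicate 1 evened out with the offsets. Actin genes had 11 rises and 9 falls (median -0.030), insulin and TOR genes 8 and 6 (-0.016), and clathrin, adaptor and retromer genes 6 and 5 (0.16). Others did not: the translocon and coat list had 22 rises and 2 falls (median 0.49) and solute carriers 13 and 5 (0.42).

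**Figure D5:**
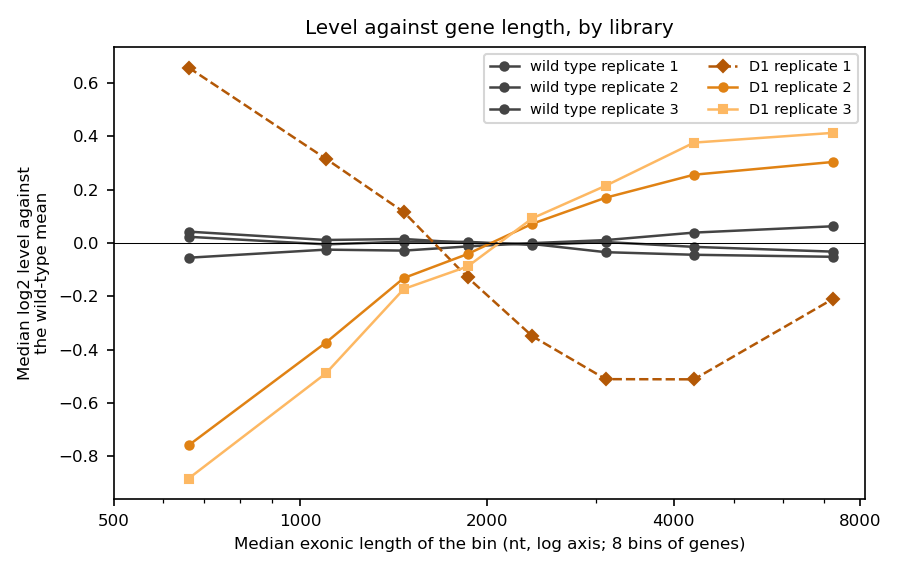
Median log2 level against the wild-type mean (vertical) in 8 bins of genes by exonic length (horizontal, log axis), for each library. Wild-type libraries (grey) lie near 0, D1 replicates 2 and 3 rise with length, and D1 replicate 1 (dashed) falls until the longest bin.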

How the data were processed

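Reads were aligned to dm6 with STAR and counted with HTSeq, per the submitters' processing notes; their versions and settings: not given in the sources used here. Per gene, the authors deposited whole-number read counts without normalisation. The 6 libraries held 19389510 to 26088798 counts. Ensembl release 115 (dm6) supplied current symbols, positions and lengths, matched for 12512 symbols directly and for 4010 by synonym; 205 had no match.

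Tests used edgeR 4.0.16 in R 4.3.3 (quasi-likelihood F-test, TMM factors, default filter on low counts, Benjamini-Hochberg adjustment, threshold 0.05). All 9 sorted libraries, including 3 of a further mutant, entered the fit and share its estimate of the spread; the second fit left out D1 replicate 1. Standard errors (±) are those of the log2 fold change, derived from the F statistic. List medians by library used log2 of normalised CPM plus 0.5. Folds against a group at 0 use a floor of 3 counts over the group, and floors cover counting error only. Nothing beyond the replicate labels says how separate the cultures or animals were, so p-values measure the spread between these libraries.

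The comparison and its 90 gene lists were chosen with earlier results of these data known. After values were seen, rtp and Sk were removed from lists they do not belong to, and the patterns that collect the Cyp, SP, Acp and Mst genes were narrowed. Genes named are the 12 largest rises and falls in fold called in both fits (mean of at least 5 CPM, groups apart), the 8 largest in CPM, and up to 4 called members of each list, plus up to 2 called only without D1 replicate 1. CG9029, Mgat1, Nha1 and Tre1 were chosen after their values were seen, and Dad, dve and elav are named as markers.

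Alternatives were RLE and upper-quartile factors, no factors, totals without the 10 most abundant genes, DESeq2 1.42.0, other filters, other sets of libraries, a test against a log2 fold change of 1, each library left out, a replicate block and offsets for gene length. The tests were checked on simulated data. Python 3.11.15, pandas 2.3.3 and matplotlib 3.10.9 made tables and figures.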

Additional observations from a re-analysis of the deposited data

How the results depend on the processing

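Counts of genes called moved with the setting. With all libraries (505 higher, 298 lower) DESeq2 gave 859 higher, no scaling factors 1450 and 116, a test against a log2 fold change of 1 gave 197 and 78, length offsets 766 and 658, and leaving out replicate 1 of both mutants 1416 and 1444. Leaving out 1 library at a time gave 233 to 1093 higher and 137 to 1002 lower. Without D1 replicate 1 (1093 and 1002) no scaling factors gave 3891 and 201, the log2 threshold 251 and 131, a fit of only the D1 and wild-type libraries 1855 lower, and leaving out a further library 472 to 817 higher and 213 to 704 lower. The cause of these shifts was not tested. The other settings stayed within 1.5 times. At an unadjusted p under 0.05 there were 1848 genes with all libraries and 3208 without D1 replicate 1.

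The replicate block gave 483 higher and 337 lower with all libraries, and 873 and 806 without D1 replicate 1. Deviations of same-numbered D1 and wild-type libraries from their group means had r = -0.22, -0.034 and -0.22. For unlike numbers r was -0.16 to 0.26. With so few libraries a group, and D1 replicate 1 apart from the other D1 libraries, these values cannot exclude pairing. Of 168 called genes followed by name, 114 kept their call without any 1 library. Of genes not called, the sign of Abd-B (0.43), Dad (0.24) and elav (0.53) turned without scaling factors, and that of dve with upper-quartile factors (-0.030), the block (-0.092) and length offsets (-0.23). With 1 library left out dve ranged from -0.19 to 0.39 and elav from -0.37 to 0.065.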
